A study of Mus musculus with 11 samples.

Results

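The genes described here make cholesterol from acetyl-CoA or control that synthesis through the transcription factor SREBP2. They were chosen by role, as a list of 27 pathway genes, and a gene was measured where the RefSeq accession of an array probe belonged to it. Of the 27, 26 had a probe, among 17427 genes with a symbol on the array, and each gene was read from its probe with the highest mean signal. Idi1, which encodes isopentenyl-diphosphate isomerase, matched no probe and was not analysed here. All 26 passed the filter on dim signals, which asked for a signal well above background on 4 or more of the 11 arrays, and 20 of them reached it on all 11.

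The arrays held RNA from fluorescent cells of fetal mouse adrenal glands, taken at E17.5 or E18.5 (embryonic days), with no age given per mouse. The 4 knockout mice were Star-/- and lacked the steroidogenic acute regulatory protein, which delivers cholesterol to the mitochondrial enzyme that starts steroid synthesis. The 7 wild-type mice were Star+/+. In both groups the cells had been sorted for eGFP, and the labels do not name the promoter that drove eGFP, so the cells that the sort selects are known only by the label, adrenocortical cells. Each array held linearly amplified RNA of 1 mouse. All 4 knockout mice were labelled male, and the wild-type mice were labelled 3 male and 4 female.

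Cholesterol is built from acetyl-CoA through HMG-CoA and mevalonate to isoprenoid diphosphates, which are joined to squalene; squalene is closed to lanosterol, and lanosterol is trimmed and reduced to cholesterol. SREBP2, the product of Srebf2, is made as a membrane protein that SCAP escorts from the endoplasmic reticulum to the Golgi when sterols are scarce. There the proteases encoded by Mbtps1 and Mbtps2 release its transcription factor domain, which activates most genes of the pathway, whereas INSIG proteins hold SCAP back when sterols are plentiful. In the adrenal cortex cholesterol is the precursor of every steroid hormone, and in the mouse it comes from lipoproteins and stored esters as well as from synthesis.

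Promoters of 4 of these genes are shown because they had the smallest p among the genes whose upstream sequence held a searched motif. No upstream sequence was available for Acat1, Sqle, Fdft1 and Fdps, which were therefore not searched. Each is the stretch of 250 bases before the transcription start, 5′ to 3′ on the gene's strand, from RefSeq in the build GRCm38.p6. Capitals mark TCACNCCAC, the core of a sterol regulatory element to which SREBP binds, and CCAAT, the box of the factor NF-Y that works with SREBP on many of these genes, each searched on both strands. Mvd lies at chr8:122443423-122443672 on the minus strand, Hmgcs1 at chr13:119690101-119690350 on the plus strand, Dhcr7 at chr7:143829964-143830213 on the plus strand and Msmo1 at chr8:64733579-64733828 on the minus strand. The Dhcr7 stretch precedes the most downstream of 3 starts in the table, and the stretches before the other two held no match.
Mvd: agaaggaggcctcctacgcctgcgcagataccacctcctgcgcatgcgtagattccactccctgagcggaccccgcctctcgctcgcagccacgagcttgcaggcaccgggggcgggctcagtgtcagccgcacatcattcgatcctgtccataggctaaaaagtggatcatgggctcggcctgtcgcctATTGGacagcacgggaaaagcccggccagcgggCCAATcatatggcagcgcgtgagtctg
Hmgcs1: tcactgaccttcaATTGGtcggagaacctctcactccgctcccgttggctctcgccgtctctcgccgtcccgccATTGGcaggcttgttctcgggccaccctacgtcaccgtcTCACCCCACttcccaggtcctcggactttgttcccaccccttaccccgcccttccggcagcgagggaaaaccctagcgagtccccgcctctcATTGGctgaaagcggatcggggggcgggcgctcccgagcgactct
Dhcr7: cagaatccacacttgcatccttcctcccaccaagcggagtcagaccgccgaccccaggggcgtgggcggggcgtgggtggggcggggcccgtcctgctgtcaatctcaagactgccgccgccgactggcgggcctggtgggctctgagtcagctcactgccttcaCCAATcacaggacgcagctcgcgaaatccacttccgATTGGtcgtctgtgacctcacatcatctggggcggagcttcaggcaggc
Msmo1: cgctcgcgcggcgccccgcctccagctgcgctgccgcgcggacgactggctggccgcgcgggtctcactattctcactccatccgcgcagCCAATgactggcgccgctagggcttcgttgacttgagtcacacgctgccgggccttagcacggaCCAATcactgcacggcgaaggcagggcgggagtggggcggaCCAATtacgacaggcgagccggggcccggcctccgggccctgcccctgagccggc

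The Hmgcs1 stretch held the sterol element core 137 bases before the start and 3 CCAAT boxes, and the Msmo1 stretch held 3 CCAAT boxes. Of 23 pathway genes in the promoter table, 19 had a CCAAT box within 250 bases of a start (82.6%), compared with 37.5% of 27025 genes in the table. The sterol element core was found in 1 of the 23 (4.35%), compared with 1.22% of all genes. No matches overlapped in the stretches shown, and a match describes the sequence only. The promoters shown belong to genes that differed in both directions between the genotypes: Mvd was higher in the knockout arrays, and Hmgcs1, Dhcr7 and Msmo1 were lower.

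Levels below are log2 processed signals relative to the array's own 75th percentile, and a level of 1 gene's probe cannot be set against that of another. The arrays lay on 3 slides: slide 1 with 2 wild-type and 2 knockout arrays, slide 2 with 1 wild-type and 2 knockout arrays, and slide 3 with 4 wild-type arrays. Slide was a block in the fit, and genotype differences therefore compare 4 knockout arrays with wild-type arrays 1 to 3. This small number limits the precision. The wild-type arrays of slide 3 do not move the differences, but their spread enters every standard error, confidence interval and p. An array detected 19066 to 26408 of its 41174 probes above background. Wild-type array 3, which stands alone for its genotype on slide 2, had the lowest 75th percentile signal, 115 against a highest of 706, and the lowest median correlation with other arrays, 0.877. Wild-type array 4 was labelled female but its Y-linked Ddx3y level was 2.70, against −6.74 to −5.27 on the other 3 arrays labelled female. Star itself was at 5.75 ± 1.82 in wild-type (SD, n = 7) and 2.37 ± 0.73 in knockout arrays (SD, n = 4), with overlapping ranges and an adjusted p of 0.0559 (limma).

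Markers of other cells moved with genotype and between wild-type arrays, and their part in the results below was not tested. All 13 tested macrophage markers were higher in the knockout arrays, whereas 57% of everything tested had a lower fitted level there. Gpnmb, Trem2 and Spi1 (3 of 13) were past the threshold, against 0.603% of everything tested that passed higher. The log2 of the macrophage markers' summed signal was 9.37 to 10.2 in knockout arrays against 4.62 to 7.88 in wild-type arrays (11 markers measured on every array). Spi1, which encodes a macrophage transcription factor, was above background on 0 of 7 wild-type arrays and met the filter through the 4 knockout arrays alone. Gpnmb was above background on 2 of 7 wild-type and 4 of 4 knockout arrays. For Spi1 and Gpnmb, passing the filter was thus not independent of genotype. All 9 tested adrenocortical markers were lower in the fitted values (57% of everything tested was), with none past the threshold. Within slides 1 and 2, 6 of the 9 were lower on both (66.7%, against 37.5% of everything tested). Cyp11a1, with a fitted difference of −0.23 ± 0.87 (SE), differed by −1.24 within slide 1 and 1.27 within slide 2. The sum over the 8 adrenocortical markers measured on every array was 6.59 to 8.20 in knockout arrays, 8.79 to 9.68 in the wild-type arrays of slides 1 and 2 and as low as 6.43 on slide 3. Cyp21a1, the 21-hydroxylase gene, was well above background on 3 of 7 wild-type and 3 of 4 knockout arrays. Chromaffin markers, which belong to the adrenal medulla, summed to 6.66 to 10.95 in wild-type and 2.44 to 7.21 in knockout arrays. In such mixed samples fewer cells of a type and less RNA per cell cannot be told apart.

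**Figure D1:**
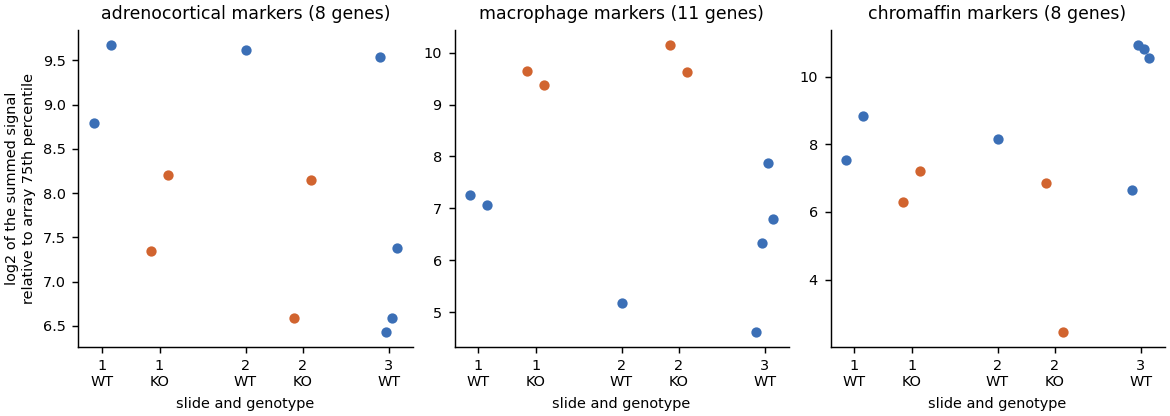
Log2 of the summed signal of adrenocortical, macrophage and chromaffin markers on each array (y axis, relative to the array's 75th percentile), by slide and genotype (x axis; blue, wild-type; orange, knockout). All 4 knockout arrays lie above all 7 wild-type arrays for macrophage markers, at 9.37 or more.

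The comparison of genotypes asks how transcripts of cholesterol synthesis differ when Star is missing. No pathway gene passed an adjusted p of 0.05 in either direction (limma, 0 of 26), where 0.231% of all 20739 genes and unnamed probes tested passed lower and 0.603% passed higher. Of the 26, 17 had a lower fitted level in the knockout arrays (65.4%, against 57% of all tested) and 9 a higher one, and their median difference was −0.34 on the log2 scale, beside −0.16 over everything tested. At an unadjusted p under 0.05, 6 were lower (23.1%, against 10.1% of all tested) and 2 were higher (7.69%, against 8.39%). The 6 lower ones were Acat1, Acat2, Hmgcs1, Sqle, Msmo1 and Dhcr7, and the 2 higher ones Mvd and Fdft1. The adjusted p of the 26 ran from 0.0969 to 0.966.

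**Figure D2:**
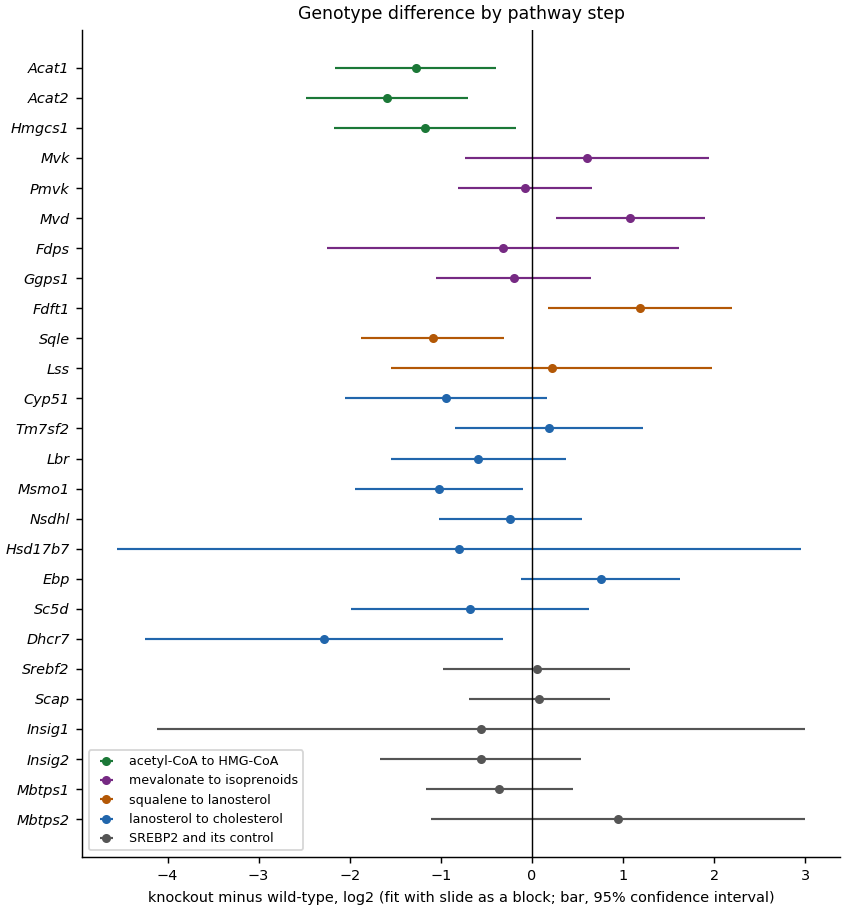
Fitted difference between knockout and wild-type arrays for each of the 26 genes (x axis, log2; points, fitted value; bars, 95% confidence interval), coloured by pathway step. The 3 genes of the first step lie between −1.59 and −1.17, while genes of later steps lie on both sides of 0.

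All 3 genes of the entry into the pathway had lower fitted levels in the knockout arrays, as did 57% of everything tested. Acat2, the cytosolic thiolase that joins acetyl-CoA units, was at −0.17 and −0.25 in the knockout arrays of slide 1 against 1.12 and 0.39 in the wild-type ones, and at 1.21 and 1.80 in the knockout arrays of slide 2 against 4.04 in the wild-type one. Within each slide both knockout arrays were below every wild-type array, but the slides differed so much that the genotypes overlapped over all arrays. The difference was −1.59 ± 0.40 (SE, 4 against 3 arrays; 95% confidence interval −2.48 to −0.70; adjusted p = 0.0969, limma). Acat1, the mitochondrial thiolase, which also serves ketone body and isoleucine breakdown, was at 4.22, 4.44, 4.24 and 3.74 in knockout arrays 1 to 4. Wild-type arrays 1 to 3 were at 5.07, 5.01 and 6.12, and the 7 wild-type arrays ranged from 5.01 through a median of 5.80 to 6.12.

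Acat1 was thus lower in every knockout array than in any wild-type array, slide 3 included. Its difference was −1.28 ± 0.40 (SE; 95% confidence interval −2.16 to −0.39; adjusted p = 0.149, limma). Hmgcs1, the HMG-CoA synthase of the cytosol and a standard SREBP2 target, was at 4.98 and 5.53 in the knockout arrays of slide 1 against 5.46 and 5.78 in wild-type, and at 4.76 and 5.00 in those of slide 2 against 7.26 in wild-type array 3. The wild-type arrays of slide 3, at 4.99, 5.56, 4.85 and 5.17, lay among the knockout values. The difference of Hmgcs1 was −1.17 ± 0.45 (SE; adjusted p = 0.217, limma), with −0.37 within slide 1 and −2.38 within slide 2; the slides did not differ past the threshold (adjusted p = 0.169, limma).

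The genes from mevalonate to the isoprenoids did not share a direction. Mvd, the mevalonate diphosphate decarboxylase, was at 0.72, 0.75, 0.37 and 0.57 in knockout arrays 1 to 4 and at −0.40, 0.50 and −1.20 in wild-type arrays 1 to 3. All 4 knockout levels exceeded the wild-type median of −0.17, and the groups overlapped through wild-type array 2. The difference was 1.08 ± 0.37 (SE; 95% confidence interval 0.26 to 1.90; adjusted p = 0.177, limma). Mvk, the mevalonate kinase, was at −0.69, −1.08, −1.31 and −1.12 in the knockout arrays, inside the wild-type range from −3.43 through a median of −1.50 to −0.18. Its difference of 0.61 ± 0.60 rested on wild-type array 3, where the probe was not well above background; within slide 1 the difference was −0.47.

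Fdps, which makes farnesyl diphosphate, varied widely among the wild-type arrays, from −2.23 in array 3 to 2.33 in array 2. Its knockout levels, from −0.50 to 0.61, lay in between, and its difference was −1.78 on slide 1 but 1.87 on slide 2. The phosphomevalonate kinase gene Pmvk and the geranylgeranyl diphosphate synthase gene Ggps1 differed by −0.080 ± 0.33 and −0.20 ± 0.38 (SE), with 95% confidence intervals of −0.81 to 0.65 and −1.05 to 0.65. Neither interval excludes 0, and a decrease of up to 1.05 on the log2 scale remains possible for Ggps1.

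The 2 enzymes on either side of squalene differed in opposite directions. Sqle, the squalene epoxidase and a rate-limiting step, was at 0.56, 1.15, 0.35 and 0.43 in knockout arrays 1 to 4, all below the wild-type arrays, which ranged from 1.34 through a median of 1.97 to 2.38. Its difference was −1.09 ± 0.35 (SE; 95% confidence interval −1.88 to −0.30; adjusted p = 0.160, limma), with −0.76 within slide 1 and −1.59 within slide 2. Sqle and Acat1 were the 2 of 26 genes (7.69%) for which every knockout array was below every wild-type array, an arrangement found in 3.24% of everything tested. The reverse, every knockout array above every wild-type array, held for 0 of 26 against 4.12%. Fdft1, the squalene synthase just upstream, was at 0.78 and 0.61 in the knockout arrays of slide 1 and at 2.76 and 2.90 in those of slide 2. Wild-type arrays 1 to 3 were at 0.14, −0.41 and 1.11.

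Fdft1 was higher in both knockout arrays than in the wild-type arrays of the same slide, while its slide 1 knockout levels lay inside the wild-type range of −0.41 to 1.40. The difference was 1.19 ± 0.45 (SE; adjusted p = 0.217, limma). A second Fdft1 probe, with a lower mean level, differed by 0.13 ± 0.54. Lss, which closes squalene epoxide to lanosterol, was dim, between −4.22 and −1.68 on all arrays, and differed by 0.22 ± 0.79.

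From lanosterol to cholesterol, 7 of 9 genes had a lower fitted level in the knockout arrays (77.8%, against 57% of all tested), and none passed the threshold (limma). At an unadjusted p under 0.05, 2 of the 9 were lower (22.2%, against 10.1% of all tested) and 0 higher (against 8.39%). Dhcr7, the reductase that finishes cholesterol from 7-dehydrocholesterol, had the lowest fitted difference of the pathway. It was at 5.33, 6.18, 5.07 and 6.16 in knockout arrays 1 to 4 and at 6.55, 7.55 and 9.39 in wild-type arrays 1 to 3, so these did not overlap. Dhcr7, Acat1 and Sqle were the 3 genes (11.5%, against 11.4% of all tested) whose knockout arrays all lay below wild-type arrays 1 to 3, and 0 of 26 lay above them, against 9.1%. On slide 3, wild-type array 4 was at 7.92, and arrays 5 to 7 were at 4.93, 4.27 and 5.82, within or below the knockout range. The difference was −2.28 ± 0.88 (SE; 95% confidence interval −4.25 to −0.32; adjusted p = 0.221, limma), with −1.29 within slide 1 and −3.77 within slide 2. A second, dim Dhcr7 probe, above background on 7 of 11 arrays, differed by −0.52 ± 1.55.

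Msmo1, the sterol C4-methyl oxidase, was at 4.58, 5.03, 4.40 and 4.63 in knockout arrays 1 to 4 against 4.94, 5.45 and 6.49 in wild-type arrays 1 to 3. The lowest of the 7 wild-type levels was 4.94, below knockout array 2 alone. Its difference was −1.02 ± 0.41 (SE; adjusted p = 0.234, limma), with −0.38 within slide 1 and −1.97 within slide 2. Cyp51, the lanosterol demethylase, differed by −0.94 ± 0.50, and Sc5d, the sterol desaturase just before Dhcr7, by −0.68 ± 0.59. The difference of Sc5d was 0.31 on slide 1 and −2.16 on slide 2.

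Hsd17b7, the sterol C3-ketone reductase, differed by −0.80 ± 1.68 at its brighter probe, which was at −6.10 and not above background on wild-type array 6 and between −0.43 and 2.12 on the other wild-type arrays. Its second probe was well above background on all 11 arrays, at −2.61 to −1.07 in knockout and −1.09 to 0.29 in wild-type arrays, and differed by −1.16 ± 0.45. The second probe was looked at after the values of the first were seen. Nsdhl, the partner of Msmo1 in demethylation, and Lbr, a nuclear envelope protein with sterol C14-reductase activity, differed by −0.24 ± 0.35 and −0.59 ± 0.43. Tm7sf2, the other C14-reductase, and Ebp, the sterol isomerase, were higher, by 0.18 ± 0.46 and 0.75 ± 0.39 (SE for all 4 genes). The other probes of Nsdhl differed in the opposite direction, by 0.69 ± 0.62 and 0.45 ± 0.57. Of the 14 pathway genes with several probes, 9 had the same direction at all of them.

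**Figure D3:**
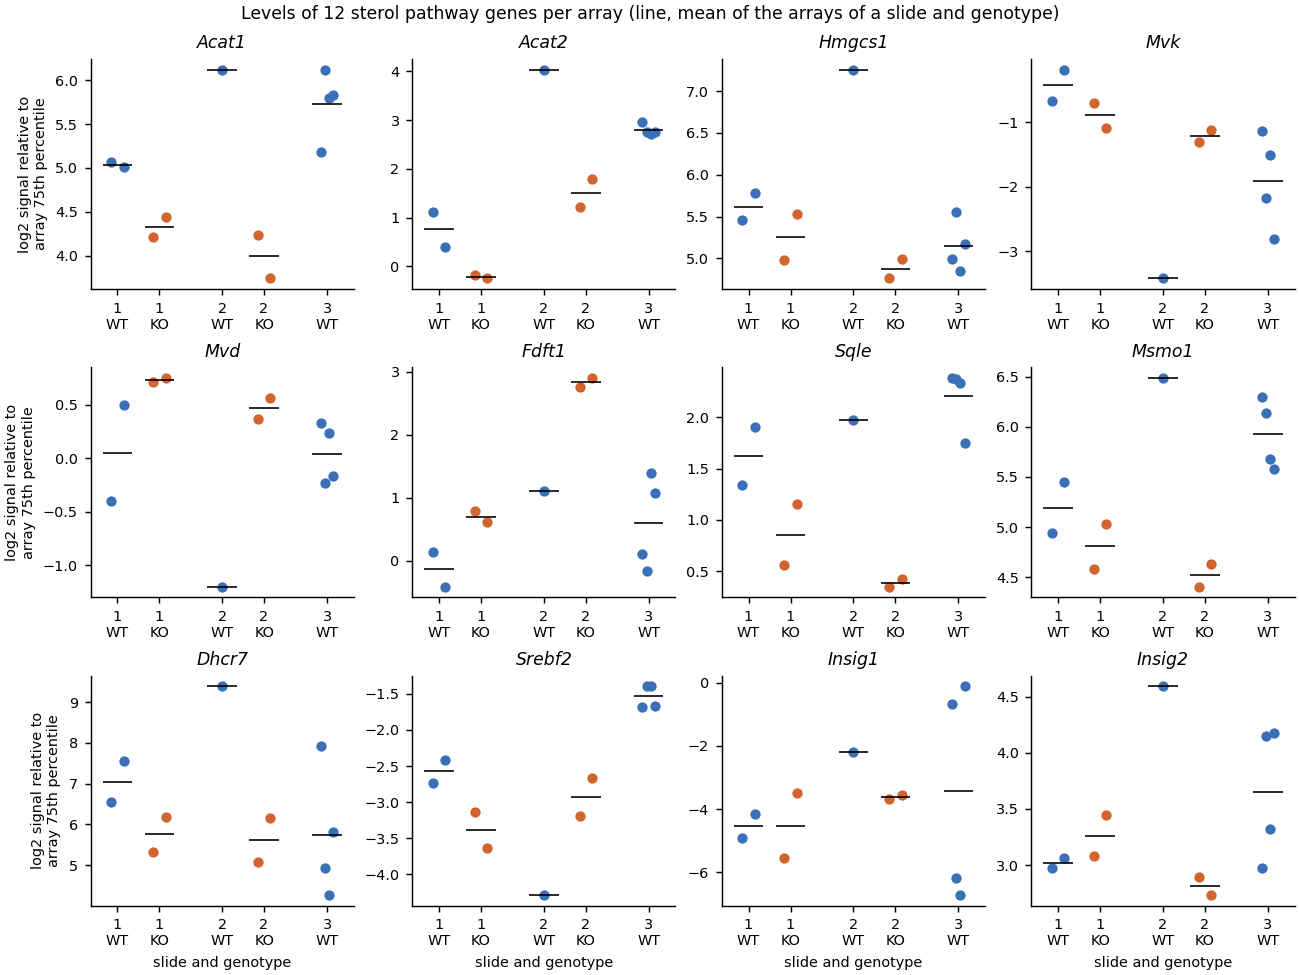
Levels of 12 pathway genes on each array (y axis, log2 signal relative to the array's 75th percentile, scaled per gene; x axis, slide and genotype; blue points, wild-type; orange, knockout; line, mean). Acat1 and Sqle are lower in every knockout array than in any wild-type array, and wild-type array 3 of slide 2 lies apart for Hmgcs1, Mvk and Dhcr7.

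The regulators showed small or poorly measured differences, and none of the 6 had an unadjusted p under 0.05 (limma). Of everything tested, 10.1% was lower and 8.39% higher at that level. Srebf2 was at −3.14, −3.64, −3.20 and −2.66 in knockout arrays 1 to 4 and at −2.73, −2.41 and −4.29 in wild-type arrays 1 to 3, with array 3 not well above background. On slide 3 its wild-type levels were −1.68, −1.39, −1.39 and −1.67, above every array of the other slides. The difference was 0.051 ± 0.46 (SE; 95% confidence interval −0.97 to 1.08; adjusted p = 0.966, limma), with −0.82 within slide 1 and 1.36 within slide 2. Scap differed by 0.081 ± 0.35, the site-1 protease gene Mbtps1 by −0.36 ± 0.36 and the site-2 protease gene Mbtps2 by 0.94 ± 0.92 (SE for all 3). Mbtps2 was well above background on 4 of 7 wild-type and 4 of 4 knockout arrays. Among wild-type arrays 1 to 3, which set its difference, it was well above background on 1, and it was at −6.65 in wild-type array 2.

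Insig1, itself a sensitive target of SREBP2, was dim and scattered. It was at −5.55, −3.50, −3.67 and −3.56 in knockout arrays 1 to 4, of which 3 were well above background. Wild-type levels ran from −6.72 through a median of −4.16 to −0.12, with 4 of 7 above background, and the difference was −0.56 ± 1.59 (SE), an interval of −4.11 to 3.00 that bounds little. Insig2, the isoform whose expression depends less on SREBP2, was at 3.08, 3.44, 2.89 and 2.73 in knockout arrays 1 to 4 and at 2.97, 3.06 and 4.59 in wild-type arrays 1 to 3. Both knockout levels of Insig2 on slide 1 were above both wild-type ones, and its difference was 0.25 within slide 1 and −1.78 within slide 2. The fitted difference of Insig2 was −0.56 ± 0.49 (SE, adjusted p = 0.562, limma).

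The differences were compared between the 2 slides that held both genotypes. Of the 26 genes, 9 were lower in the knockout arrays within both slides (34.6%, against 37.5% of all tested), 4 were higher within both (15.4%, against 25.7%), and 13 had opposite signs (50%). Over everything tested, opposite signs made up what the 37.5% and 25.7% left, a smaller share than among the pathway genes. The difference was lower on slide 2 than on slide 1 for 14 of 26 (53.8%, against 57.4% of all tested). The 9 were Acat1, Acat2, Hmgcs1, Sqle, Cyp51, Msmo1, Hsd17b7, Dhcr7 and Mbtps1, and the 4 were Mvd, Fdft1, Tm7sf2 and Ebp. The median difference was −0.36 within slide 1 and −0.65 within slide 2, beside −0.061 and −0.33 over everything tested. Tested directly, the difference between the slides passed for 0 of 26 genes (limma adjusted p, where 0.0531% of all tested passed; 10 of 26 had an unadjusted p under 0.05, against 16.1% of all tested), with the smallest adjusted p, 0.131, for Srebf2. Slide 2 has wild-type array 3 as its only wild-type array, so that array and slide 2 cannot be told apart here. That array was also labelled female, the only one on slides 1 and 2, and had low Ddx3y (−5.27), so each slide 2 difference sets male knockout mice against a female wild-type mouse and genotype and sex cannot be told apart within it.

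**Figure D4:**
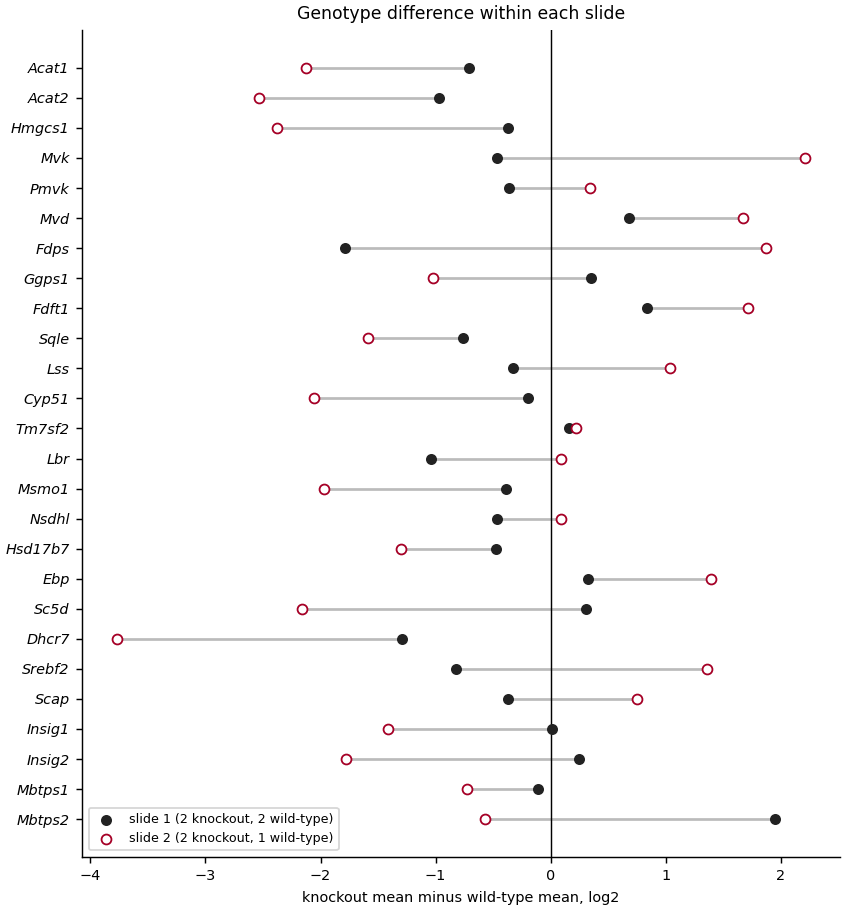
Knockout mean minus wild-type mean within slide 1 (filled) and within slide 2 (open) for each of the 26 genes (x axis, log2). Circles of a gene lie on opposite sides of 0 for 13 genes, while all 3 genes of the first step are below 0 on both slides, as was 37.5% of everything tested.

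Without wild-type array 3, the difference of Acat2 was −0.97, of Acat1 −0.71, of Sqle −0.76, of Dhcr7 −1.29, of Hmgcs1 −0.37, of Msmo1 −0.38, of Mvd 0.68 and of Fdft1 0.83. All 8 kept their sign and were smaller, and the mice compared were then all labelled male. These are the differences within slide 1, of 2 knockout against 2 wild-type arrays. Knockout arrays 3 and 4 then had no wild-type array on their slide and did not contribute. With sex as a further term the differences of Acat2, Acat1, Sqle and Dhcr7 were −1.36, −1.11, −0.82 and −1.97, and none of the 26 genes passed. That fit took the doubtful label of wild-type array 4 as given; with array 4 left out the same differences were −1.36, −1.03, −0.82 and −2.22, and again none passed. Nsdhl, Ebp and Mbtps2 are X-linked, and with sex as a term they differed by −0.17, 0.64 and 1.02.

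The wild-type arrays differed among themselves in the pathway. On slide 3, array 4 had chromaffin markers summing to 6.66 and adrenocortical markers to 9.53, whereas arrays 5 to 7 had chromaffin sums of 10.95, 10.8 and 10.5 and adrenocortical sums of 6.43, 6.59 and 7.38. Dhcr7 was at 7.92 in array 4 against at most 5.82 in arrays 5 to 7, and Fdps at 1.78 against at most −0.61. Acat2, in contrast, was at 2.96, 2.75, 2.71 and 2.75 in arrays 4 to 7, and Sqle at 2.38, 2.38, 2.33 and 1.75. The genes named here are examples and were not picked by a set rule. Outside slide 3, wild-type array 3 had an adrenocortical sum of 9.61 and a chromaffin sum of 8.15. Its Dhcr7 level was 9.39, but its Fdps level was −2.23, the lowest of all arrays. Arrays 4 to 7 are 4 single arrays of 1 genotype, and no test was made between them.

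**Figure D5:**
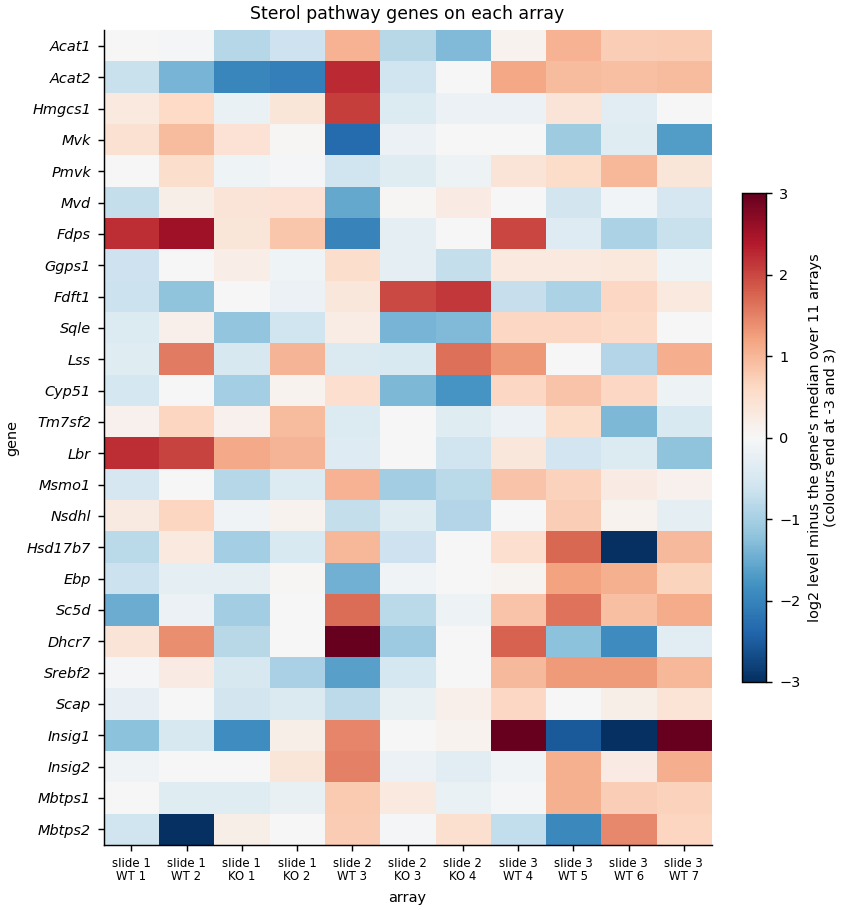
Level of each of the 26 genes (rows) on each of the 11 arrays (columns, ordered by slide and genotype) minus the gene's median over all arrays (log2; red, above; blue, below). Wild-type array 3 stands apart within slide 2, for Acat2, Hmgcs1 and Dhcr7 above and for Mvk, Mvd and Fdps below the median.

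Other genes tied to the pathway were read from 3 further lists. Among 15 other SREBP targets, mostly of fatty acid synthesis, none passed (limma). At an unadjusted p under 0.05, 4 were lower (26.7%, against 10.1% of all tested) and 0 higher (against 8.39%). Fitted levels were lower for 11 (73.3%, against 57%), with a median of −0.67. The fatty acid elongase genes Elovl5 and Elovl6 differed by −1.58 ± 0.38 (SE; adjusted p = 0.0948, limma) and −1.46 ± 0.46 (SE; adjusted p = 0.153), and the desaturase gene Scd2 by −1.52 ± 0.39 (SE; adjusted p = 0.105). Elovl5 was at 3.57 to 4.39 in knockout and 4.76 to 6.01 in wild-type arrays, which did not overlap. Within slides 1 and 2, 10 of the 15 were lower on both (66.7%, against 37.5% of all tested).

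The remaining 2 lists held genes that use isoprenoids or that degrade sterol-regulated proteins. Among 11 genes that use isoprenoids for prenylation, dolichol or coenzyme Q, none passed, and 1 was lower and 1 higher at an unadjusted p under 0.05 (9.09% each, against 10.1% and 8.39% of all tested). Their median difference was −0.090. The coenzyme Q prenyltransferase gene Coq2 differed by −0.85 ± 0.37, and Rabggta, a subunit of the Rab prenyltransferase, and Icmt, the isoprenylcysteine methyltransferase, by 1.35 ± 0.45 and 1.23 ± 0.58 (SE). Within slides 1 and 2 the differences were −0.30 and −1.69 for Coq2, 0.56 and 2.53 for Rabggta and 0.20 and 2.77 for Icmt. Icmt was at −3.17 in wild-type array 3 and well above background on 2 of wild-type arrays 1 to 3. Among 12 genes of the endoplasmic reticulum machinery that degrades sterol-regulated proteins, none passed, and 1 was lower and 1 higher at an unadjusted p under 0.05 (8.33% each). Their median difference was −0.53. Aup1, a membrane protein of that machinery, differed by 2.27 ± 0.84, with 0.57 within slide 1; the wild-type level of slide 2, in array 3, was not well above background. The ubiquitin ligase gene Syvn1 differed by 0.63 ± 0.31 (SE).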

How the data were processed

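The authors hybridised Cy3-labelled RNA of each mouse to a 1-colour Agilent array, per the labels. The deposited intensity values, the processed signals, were background-subtracted by Agilent Feature Extraction, version 10.1.1.1 for slides 1 and 2 and 10.5.1.1 for slide 3, per the file headers; the submitters' processing notes name 10.5.1.1 alone. The authors' deposited series table is on a log2 scale, with no scaling stated; it matched the present levels, centred per probe, within 0.01 for at least 99.8% of probes, with column medians from −0.17 to 0.90. Deposited flags gave outlier spots (77 to 164 per array, left out), saturation (0 spots) and signals well above background.

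Spots of a probe were averaged as log2 signals, and each array's 75th percentile over 41174 probes was subtracted. Names came from matching accessions, newest array design first, to a RefSeq table of GRCm38.p6: 25377 probes had a symbol and the others were tested under their own name. The model, fitted in limma 3.58.1 (R 4.3.3), had genotype and slide as terms and was two-sided, Benjamini-Hochberg adjusted over 20739 genes and probes, threshold 0.05. The fit was tested on simulated data with 20739 genes, where the share called was 0% for a 2-fold change, 26.9% for 4-fold and 39.4% for 8-fold. Slides are array identities in the file headers, numbered by scan order. Members and lists were chosen with earlier results of these data known. All pathway genes are named; of the other lists the 3 with the smallest p are, except for 1 gene that is not reported here.

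Alternatives concerned slide, sex, the replicate number, background, scaling, filters, probes, the series table, array weights, the variance prior and omission of single arrays. Normexp, offset 50, used median spot signals. Array weights used the gene-by-gene method, because the default estimate did not converge; this was settled after seeing the data.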

Additional observations from a re-analysis of the deposited data

Results flagged for a closer look

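Among 52 groups of arrays tested, 26 genes in each genotype, 3 held an array whose gap to the others was large for the group's range, and chance flags about 1 in 20 groups. Hmgcs1 was at 7.26 in wild-type array 3, above the other wild-type arrays at 4.85 to 5.78. Hsd17b7 was at −6.10 in wild-type array 6, below the others at −0.43 to 2.12, and its probe was not well above background there. Insig1 was at −5.55 in knockout array 1, below the others at −3.67 to −3.50, and was not well above background there either.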

How the results depend on the processing

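No pathway gene passed in either direction in most fits. The exceptions, all lower in the knockout arrays, were 2 genes without a slide term (Acat1 and Sqle, adjusted p = 0.0452 and 0.0406, limma), 1 gene among those above background on all 11 arrays (Acat2, adjusted p = 0.0459), and 5 genes with array weights (Acat1, Acat2, Fdps, Sqle and Lbr), a fit in which 2690 of 20739 genes and probes passed and weights ran from 0.13 to 7.39. These counts are of 26, 20 and 26 pathway genes tested. Of everything tested, 138 of 20739 passed lower without a slide term and 178 of 12440 among those above background on all 11 arrays. With array weights 1289 of 20739 passed lower. Over all alternatives the adjusted p ran from 0.0337 to 0.911 for Acat1, from 0.0328 to 0.717 for Acat2 and from 0.0314 to 0.875 for Sqle. The median difference, −0.34, was −0.65 within slide 2 and −0.55 with array weights, and ran from −0.40 to −0.29 with each array left out. The count of genes differing between slides was 5 with array weights and 0 to 1 with each array left out, 1 without wild-type array 4.

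Direction held under every alternative run for 11 genes, 27 for each but Hsd17b7, which was not among the genes above background on all 11 arrays: Acat1, Acat2, Hmgcs1, Mvd, Fdft1, Sqle, Cyp51, Msmo1, Hsd17b7, Dhcr7 and Mbtps1. Not all 27 could change a sign. Changing the filter or the variance prior left the fitted differences as they were. So did leaving out any wild-type array of the slide that held no knockout array. Omitting the only wild-type array of slide 2 gave the same differences as slide 1 alone. The count of 27 therefore overstates how often direction was tested. Among 697 single-gene values, 65 had the opposite sign and 8 newly passed; the cause was not tested. Opposite signs came without a slide term for Lbr (0.11), Ebp (−0.18), Srebf2 (−0.94) and Scap (−0.29), with slide as a random block for Srebf2 (−0.48) and Scap (−0.11), and with sex as a term for Ggps1 (0.10), Lss (−0.22), Srebf2 (−0.21) and Scap (−0.12). With sex as a term and wild-type array 4 left out, an alternative added after seeing the data, they came for Ggps1 (0.11), Lss (−0.37), Srebf2 (−0.21) and Scap (−0.17). Within slide 1 they came for Mvk (−0.47), Ggps1 (0.35), Lss (−0.33), Sc5d (0.31), Srebf2 (−0.82), Scap (−0.37), Insig1 (0.010) and Insig2 (0.25). Within slide 2 they came for Pmvk (0.34), Fdps (1.87), Lbr (0.087), Nsdhl (0.093) and Mbtps2 (−0.57). Array weights gave Mvk −0.25, Ggps1 0.36, Lss −0.77, Tm7sf2 −0.10, Srebf2 −0.58, Scap −0.36 and Insig2 0.048. The normexp background gave Mvk −0.022, Pmvk 0.048, Lss −0.37, Srebf2 −0.57 and Mbtps2 −0.21. The mean over probes gave Pmvk 0.017, Nsdhl 0.30 and Srebf2 −0.23, and the percentile over detected probes gave Pmvk 0.048. With each array left out, ranges crossed 0 for Lss (−0.33 to 0.83), Pmvk (−0.36 to 0.12), Fdps (−1.78 to 0.16), Mvk (−0.47 to 1.00), Ggps1 (−0.49 to 0.35), Sc5d (−1.26 to 0.31), Srebf2 (−0.82 to 0.40), Scap (−0.37 to 0.26), Insig1 (−1.21 to 0.010), Insig2 (−0.86 to 0.25) and Tm7sf2 (−0.011 to 0.39).

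The replicate number as a block gave 0 passing genes and a median of −0.37, with Lss at −0.082, Srebf2 at −0.38 and Scap at −0.16. Same-numbered arrays deviated from their group means with correlations of 0.18, 0.22, −0.0077 and 0.18. Arrays with different numbers were not correlated and slide was not removed, so these values cannot decide whether the numbers mark pairs. The numbers were not taken as pairs. The median over everything tested, −0.16, was −0.29 with the normexp background and −0.029 with the percentile over detected probes, where the pathway medians were −0.42 and −0.21. Insig1 and Mbtps2 were above background on 7 and 8 of 11 arrays, and their standard errors were 1.59 and 0.92.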
